A study of Homo sapiens with 4 samples.

Results

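Of 18010 long noncoding RNA (lncRNA) genes on chromosomes 1 to 22, X and Y in the RefSeq table of GRCh38.p14, 147 had a p53 peak on the gene or at most 10 kb away in both genotypes studied. These 147 genes are described here. They were chosen by that criterion from the deposited peaks, so the presence of a peak in each genotype is a description and was not tested. An R273H peak was near 2.1% of all lncRNA genes, a wildtype peak near 2.87%, and peaks of both near 160 genes (0.888%), before genes of the ribosomal region of chromosome 21 (8 to 9 Mb) and 14 genes named in the selection rule were left out. Those exclusions removed 13 genes. A further 10 lncRNA genes met the rule only through coordinates that belong to scaffolds outside the chromosomes, and they were left out as misplaced. Genes that share a peak are not independent, and the 147 genes formed 125 loci, 105 of them with 1 gene and 20 with several.

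The study mapped p53 by chromatin immunoprecipitation with sequencing (ChIP-seq) in HCT116, a human colorectal cancer cell line, grown as spheroids with EGF and bFGF (growth factors, 20 ng/ml) and collected at passages 13 to 18. Cells with p53-R273H were set against a wildtype control labelled ctrl-19-7, and the antibody in both was DO1, against p53; how R273H was introduced, and whether each line is a single clone, is not given in the labels. There were 4 libraries, with 1 ChIP and 1 input per genotype, and the deposited lists held 2008 R273H and 2059 wildtype peaks. Since each genotype had a single ChIP library, differences between them cannot be tested, read depth is unknown from the lists, and no expression of these RNAs was measured here. Each score is the authors' own value for a peak and is read only within its list.

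p53 is a transcription factor that binds DNA as a tetramer at a response element made of paired decamers, each with purines, a central C, A or T bases, a G and pyrimidines. The arginine replaced in R273H touches the DNA backbone, and R273H is a common contact mutant in colorectal tumours. lncRNAs are transcripts without a long open reading frame, and several are known direct p53 targets that feed into arrest, apoptosis or chromatin regulation. Many others start inside old retroviral repeats, some families of which are known to carry p53 response elements.

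The choice of genes did not use promoter sequence directly, but it used p53 peaks, which can lie over a promoter. RefSeq windows of 300 bases, from 250 before to 50 after a start, existed for 86 of the 147 genes, 100 windows in all. The response element was searched on both strands as paired decamers with no spacer, the C and G of each decamer intact and at most 3 mismatches in 20 bases; the motif is its own reverse complement. It was found in 3 of the 100 windows, at EIF2AK3-AS1, LOC124901737 and LOC105376065, against 1.12% of all 35116 windows and 1.08% of lncRNA windows. At EIF2AK3-AS1 and LOC124901737 it lay inside peaks by which the gene was chosen. The share is therefore not independent of the choice, and nothing is read from its difference from the background. With a spacer of 0 to 13 bases allowed, 10 of the 100 windows had a match, below the 12.8% of all windows, so the direction against the background turned. The best match in each of the 3 windows had no mismatch. Only 6 of the 35116 windows held an element without a mismatch. The windows are shown because 2 of them had the element under a peak in both genotypes, the third had it away from the peaks of its gene, and the fourth, at LINC01707, had a peak in both lists and no match. Capitals mark the element, and each window is written in the direction of transcription.
EIF2AK3-AS1 (chr2:88538470-88538769, plus strand): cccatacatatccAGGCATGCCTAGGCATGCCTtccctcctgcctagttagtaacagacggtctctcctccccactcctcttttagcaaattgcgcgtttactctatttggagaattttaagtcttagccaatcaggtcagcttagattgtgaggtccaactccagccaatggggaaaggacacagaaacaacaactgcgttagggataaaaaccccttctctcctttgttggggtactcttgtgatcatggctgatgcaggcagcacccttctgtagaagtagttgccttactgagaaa
LOC124901737 (chr7:121511145-121511444, minus strand): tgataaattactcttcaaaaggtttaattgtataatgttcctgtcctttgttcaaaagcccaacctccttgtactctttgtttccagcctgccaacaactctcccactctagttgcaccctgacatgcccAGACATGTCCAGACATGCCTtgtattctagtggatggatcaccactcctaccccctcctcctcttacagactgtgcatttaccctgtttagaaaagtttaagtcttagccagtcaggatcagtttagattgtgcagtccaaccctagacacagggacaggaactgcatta
LOC105376065 (chr9:41533108-41533407, minus strand): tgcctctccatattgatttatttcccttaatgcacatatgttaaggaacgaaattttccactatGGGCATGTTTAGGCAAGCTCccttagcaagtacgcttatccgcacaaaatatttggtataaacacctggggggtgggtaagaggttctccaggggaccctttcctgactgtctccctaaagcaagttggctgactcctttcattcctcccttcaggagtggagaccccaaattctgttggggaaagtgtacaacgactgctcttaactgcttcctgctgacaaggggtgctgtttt
LINC01707 (chr1:69055648-69055947, plus strand): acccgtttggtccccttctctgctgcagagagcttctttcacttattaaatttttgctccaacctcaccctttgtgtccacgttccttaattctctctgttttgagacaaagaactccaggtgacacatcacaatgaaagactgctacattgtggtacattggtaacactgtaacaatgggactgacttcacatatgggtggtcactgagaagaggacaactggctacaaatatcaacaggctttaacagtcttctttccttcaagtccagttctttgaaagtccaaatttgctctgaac

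The element of LOC124901737, an uncharacterised lncRNA gene of 60247 bp on chromosome 7, sat near the centre of the highest-ranked peak pair among the 147 genes. Its R273H peak (121510958 to 121511681) scored 1449 and ranked 15 in the R273H list. The wildtype peak (121510866 to 121511681) scored 3100, a value shared by 22 wildtype peaks. The midpoint of the element (121511295 to 121511314) was 15 bp below the R273H midpoint and 31 bp above the wildtype midpoint in coordinate. A further match with 1 mismatch began 10 bases before the one in capitals and shares a decamer with it, so that the decamers run on. A further pair lay inside the gene, with an R273H score of 222 and a wildtype score of 804. LOC105375478 lies within LOC124901737, and the higher-scoring R273H peak is 5799 bp from it.

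EIF2AK3-AS1 is named as antisense to EIF2AK3, the gene of the endoplasmic reticulum stress kinase PERK. Its R273H peak (chromosome 2, 88538255 to 88538756) scored 259. In the wildtype list the same stretch held separate peaks at 88538256 to 88538600 (322) and 88538614 to 88538970 (130). The element (88538483 to 88538502) lay inside the R273H peak, 13 bp from its midpoint, and inside the first wildtype peak, 64.5 bp from its midpoint. At LOC105376065 on chromosome 9 the element (41533324 to 41533343) was 6236 bp from the R273H peak and 6002 bp from the wildtype peak, and these peaks scored 51.7 and 266.

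The windows of EIF2AK3-AS1 and LOC124901737 also resembled each other beyond the element. In a local alignment of the windows, 142 of 208 columns were identical (68.3%), and the aligned stretch spans the element in each. The longest identical run, tttaagtcttagcca, had 15 bases and began 134 bases before the start of EIF2AK3-AS1 and 24 bases before that of LOC124901737. Of all 35116 windows, searched on both strands, these were the 2 that held the run (0.0057%). The resemblance was looked for after the sequences had been seen, and no repeat annotation was used here.

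Peaks over an annotated promoter were rare. In all, 6 of the 86 genes had a window overlapped in both lists: LOC124901737, EIF2AK3-AS1, LINC01707, LOC105376912, LOC124904704 and MIR663AHG. Windows with a peak in both lists made up 0.0619% of lncRNA windows and 0.0598% of all windows; the genes were chosen for having peaks in both lists and supply most of those lncRNA windows, so nothing is read from these shares. Among the 15 windows of genes outside the 147 that had a peak in both lists, 7 held a response element (46.7%), beside 2 of the 6 here. The R273H and wildtype scores were 264 and 626 at LINC01707, 80.4 and 265 at LOC105376912, and 146 and 132 at LOC124904704. LOC105376912 and MIR663AHG had GC-rich windows, with 69.3% and 75.3% G or C, and the other 4 windows had 38.0% to 47.3%.

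**Figure D1:**
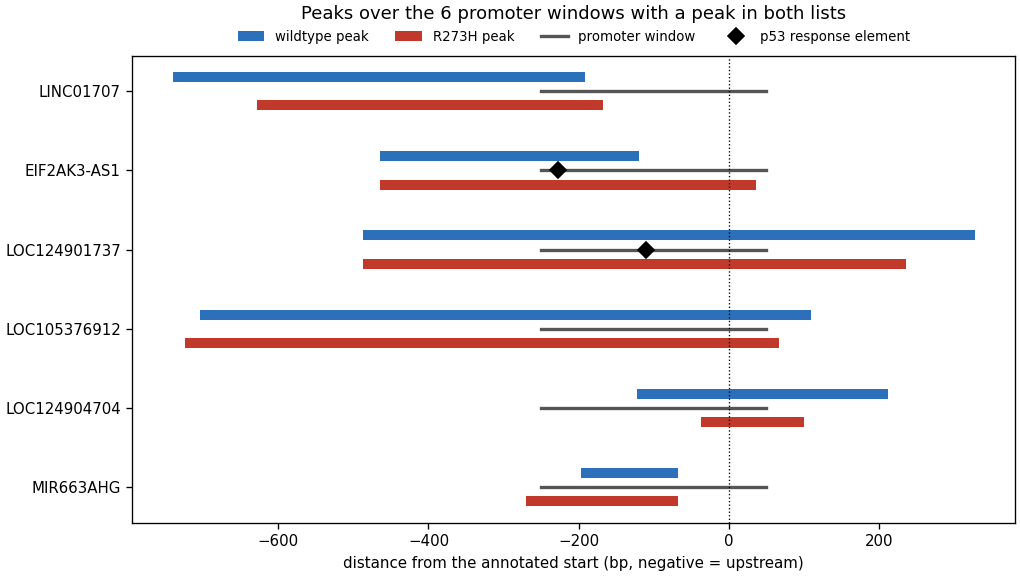
Peaks over the 6 promoter windows with a peak in both lists. The horizontal axis is the distance from the annotated start in bp, with upstream negative; blue bars are wildtype peaks, red bars R273H peaks, grey lines the windows of 300 bases and diamonds the response elements. For each list the highest-scoring peak over the window is drawn. Both diamonds, at EIF2AK3-AS1 and LOC124901737, lie under a bar of each colour.

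MIR663AHG, the host gene of the microRNA miR-663a on chromosome 20, had 4 peaks in each list, the most of the 147 genes. Its R273H peaks scored 91.6 to 105 and its wildtype peaks 53.6 to 209. In both lists peaks began at 26208170, 26209152 and 26209301. The placement of reads that match several copies is not known, and its part here was not tested. The mature microRNA lies at chr20:26208243-26208264 on the minus strand, and it lay inside the pair formed by the R273H peak at 26208170 to 26208325 (105) and the wildtype peak at 26208170 to 26208317 (209). Its sequence is shown, with the seed (bases 2 to 8) in capitals, because it is the one microRNA of the 147 genes that was covered by peaks of both lists.
hsa-miR-663a: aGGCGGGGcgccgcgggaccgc

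Most of the other genes had their peaks away from the start. The peak midpoint was within 1 kb of an annotated start at 11 of the 86 genes in the R273H list and at 10 in the wildtype list. The median distance was 7.50 kb for R273H and 7.36 kb for wildtype. R273H midpoints lay upstream of the nearest start at 26 genes and downstream at 60. The selection rule admits peaks up to 10 kb before a gene, anywhere within it and up to 10 kb past its end. Distance and direction depend on that rule and on gene length, so nothing is read from them. Upstream also includes peaks on the gene, as at LOC105376107, whose R273H midpoint was 146 kb upstream of the annotated start used. Over all 147 genes, 72 were themselves overlapped by peaks of both lists (49.0%), 1 by R273H peaks alone, 6 by wildtype peaks alone and 68 by none. Among 415 genes of other types with a peak in both lists, 53% had a peak on the gene in both.

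**Figure D2:**
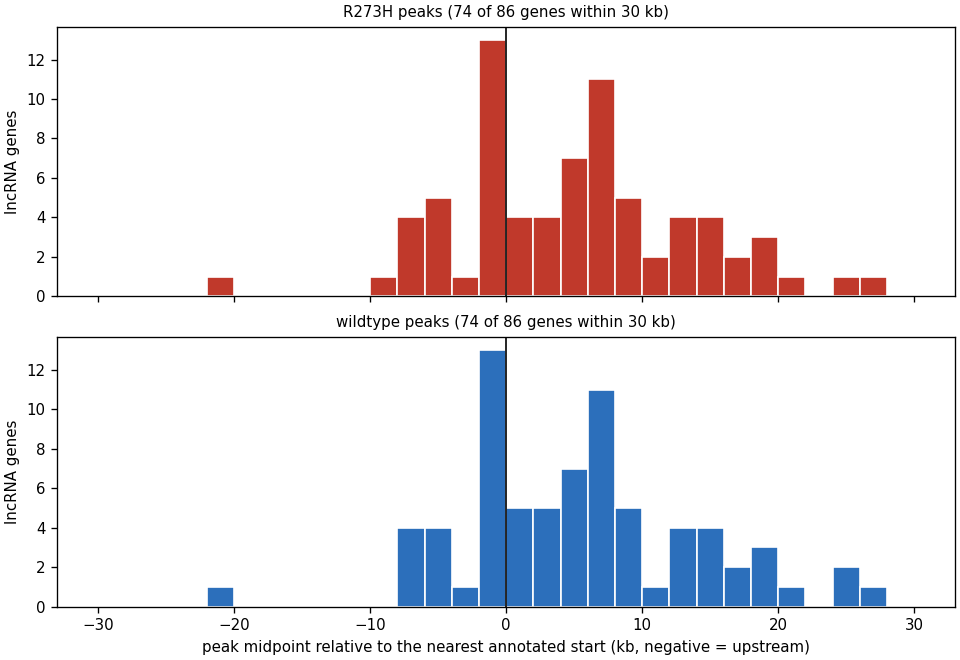
Distance in kb from the nearest annotated start to the midpoint of the peak, with upstream negative, for the R273H list (top) and the wildtype list (bottom). Bars count lncRNA genes in bins of 2 kb, and 74 of the 86 genes with a known start lie within the 30 kb shown in each list. The tallest bar in each panel is the bin just upstream of the start, and more genes lie downstream than upstream. The selection rule admits peaks anywhere within a gene, so nothing is read from this.

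At most of these genes, as at most other genes with a peak in both lists, R273H and wildtype peaks overlapped. R273H and wildtype peaks had 1 bp or more in common at 134 of the 147 genes (91.2%), against 84.8% of the 415 genes of other types with a peak in both lists. Counted by locus, 113 of the 125 had overlapping peaks. Over distinct peaks, 126 of 143 R273H peaks at these genes (88.1%) and 124 of 152 wildtype peaks (81.6%) overlapped the other list. In the whole lists 21.9% of R273H and 21.2% of wildtype peaks did; since the genes were chosen for having both, nothing is read from the difference. The peaks formed 130 overlapping pairs, with a median distance between midpoints of 37 bp (quartiles 14.5 to 65.6). Midpoints were within 200 bp in 125 of the 130 pairs (96.2%), beside 89.6% of the 318 overlapping pairs elsewhere. The wildtype peak was the wider in 98 pairs (75.4%, and 78.9% elsewhere), with median widths of 444.5 bp for wildtype and 321 bp for R273H. Width depends on depth and peak calling, and their part in it was not tested. Some overlapping pairs lay at chromosome ends. Examples are LOC102723376 on chromosome 10 (R273H 10001 to 10527, wildtype 10001 to 10524) and LINC01986 on chromosome 3 (R273H 10124 to 10812, wildtype 10124 to 10796). With peaks within 3 Mb of chromosome ends left out, 111 of 120 genes had overlapping peaks.

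**Figure D3:**
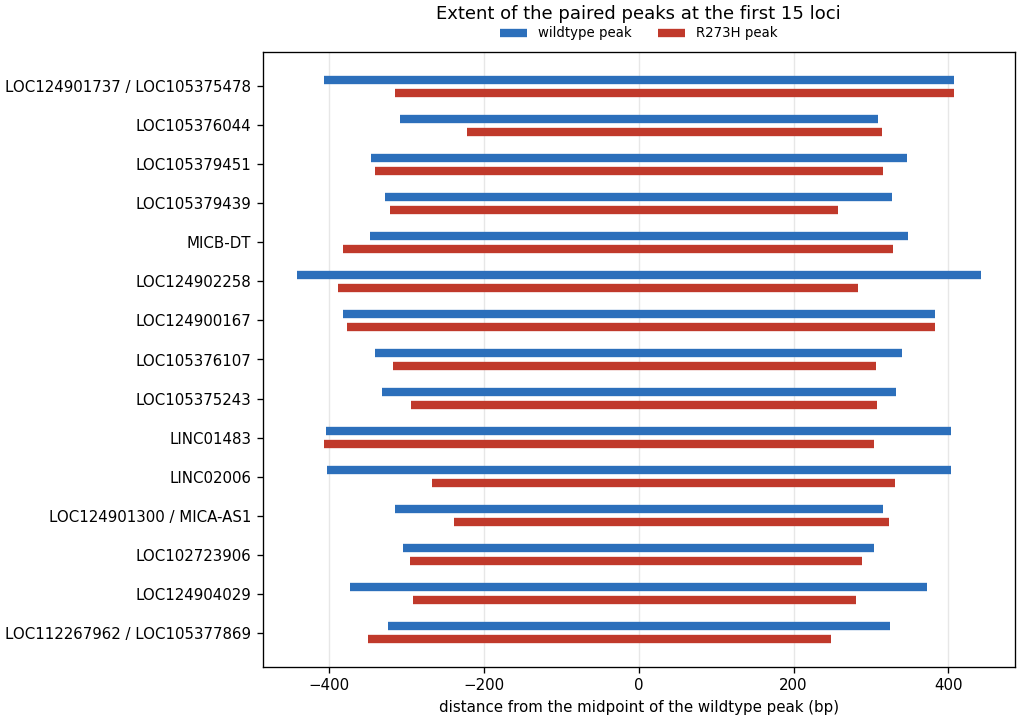
Extent of the paired peaks at the 15 loci with the lowest summed rank. The horizontal axis is the distance in bp from the midpoint of the wildtype peak; blue bars are wildtype peaks and red bars R273H peaks. At every locus drawn the red bar covers the midpoint of the blue one.

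The best R273H peak per gene scored from 50.1 to 2073, with a median of 136 (quartiles 77.7 to 245), in a list whose median was 61.9. The best wildtype peak scored from 51.3 to 3100, with a median of 295 (131 to 664), in a list whose median was 64.9. A score of 100 or more was reached by 92 genes in the R273H list (62.6%, against 19.5% of its peaks) and by 120 genes in the wildtype list (81.6%, against 27.5%). Both lists gave such a score at 87 genes, and neither did at 22. At 18 genes both scores were 500 or more. Each gene enters these figures by its best peak, and genes at a common peak are counted separately. The genes were also chosen for having peaks in both lists, so nothing is read from the differences from the whole lists.

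**Figure D4:**
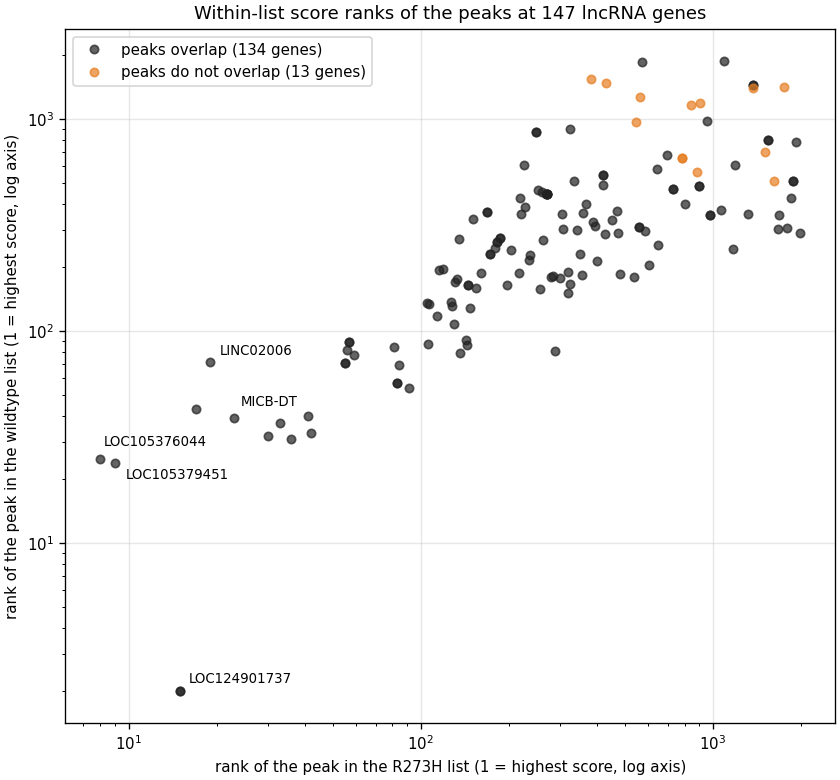
Rank of the peak in the R273H list (horizontal) and in the wildtype list (vertical) for each of the 147 lncRNA genes, on log axes with 1 as the highest score. Black points are the 134 genes with overlapping peaks and orange points the 13 without; genes at a common peak fall on one point. Orange points all have an R273H rank of 382 or more and a wildtype rank of 509 or more.

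After LOC124901737, the lowest summed ranks belonged to 3 genes of chromosome 9. LOC105376044 had peaks at 38895169 to 38895705 (R273H, 2073) and 38895082 to 38895699 (wildtype, 3056). LOC105379451 scored 1994 and 3066, and LOC105379439 scored 1314 and 2082, in the same order of lists. None of the 3 genes was overlapped by its peak; the R273H peaks lay 5456, 5332 and 5458 bp from LOC105376044, LOC105379451 and LOC105379439. The promoter windows of LOC105379439 and LOC105379451 were 99.7% identical, and their R273H peaks lay 9.33 and 9.28 kb downstream of the respective starts. LOC105374991 and LOC105374992 on chromosome 6 had identical windows (100%), with R273H peaks 15.3 and 15.4 kb downstream that scored 221 and 243, and wildtype peaks that scored 661 and 641. LOC102723376 on chromosome 10 and LINC02564 on chromosome 18, both near a chromosome end, were 99.7% identical in 1 window of each, with R273H scores of 151 and 62.7. The placement of reads that match several copies was not given in the sources used here, so sites beside near-identical windows may not be separate.

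Loci 5 and 12 by summed rank lay in the stress-ligand region of the major histocompatibility complex on chromosome 6. MICB-DT is named as a divergent transcript of MICB and MICA-AS1 as antisense to MICA; MICA and MICB encode surface ligands of the NKG2D receptor of natural killer cells. The MICB-DT peak lay inside the gene (R273H 31487197 to 31487909, score 1173; wildtype 31487232 to 31487928, score 2308) and 7009 bp from MICB. The pair at MICA-AS1 and LOC124901300 (R273H 31390438 to 31391000, score 726; wildtype 31390361 to 31390992, score 1447) lay between these lncRNA genes and 9711 bp from MICA in the R273H list. MICA-AS1 had 2 further R273H peaks, with scores of 60.02 and 51.3, and no further wildtype peak.

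Intergenic and uncharacterised genes made up the rest of the first 15 loci. LINC02006 on chromosome 3, of 378977 bp, had an R273H score of 1250 and a wildtype score of 1443 at peaks on the gene. LINC01483 on chromosome 17 scored 892 and 2159, also on the gene. LOC124902258 (1049 and 2549) and LOC105376107 (1003 and 2356) on chromosome 9, LOC124900167 on chromosome 4 (961 and 2560) and LOC105375243 on chromosome 7 (877 and 2519) each had 1 peak per list on the gene. LOC102723906 on chromosome 4 (694 and 1329) and the nested genes LOC112267962 and LOC105377869 on chromosome 6 (489 and 1700) did as well. LOC124904029 on chromosome 17 (713 and 1244) had its peaks 2598 bp and 2517 bp outside the gene. At 10 of the 15 loci both lists had a peak on a member gene.

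**Figure D5:**
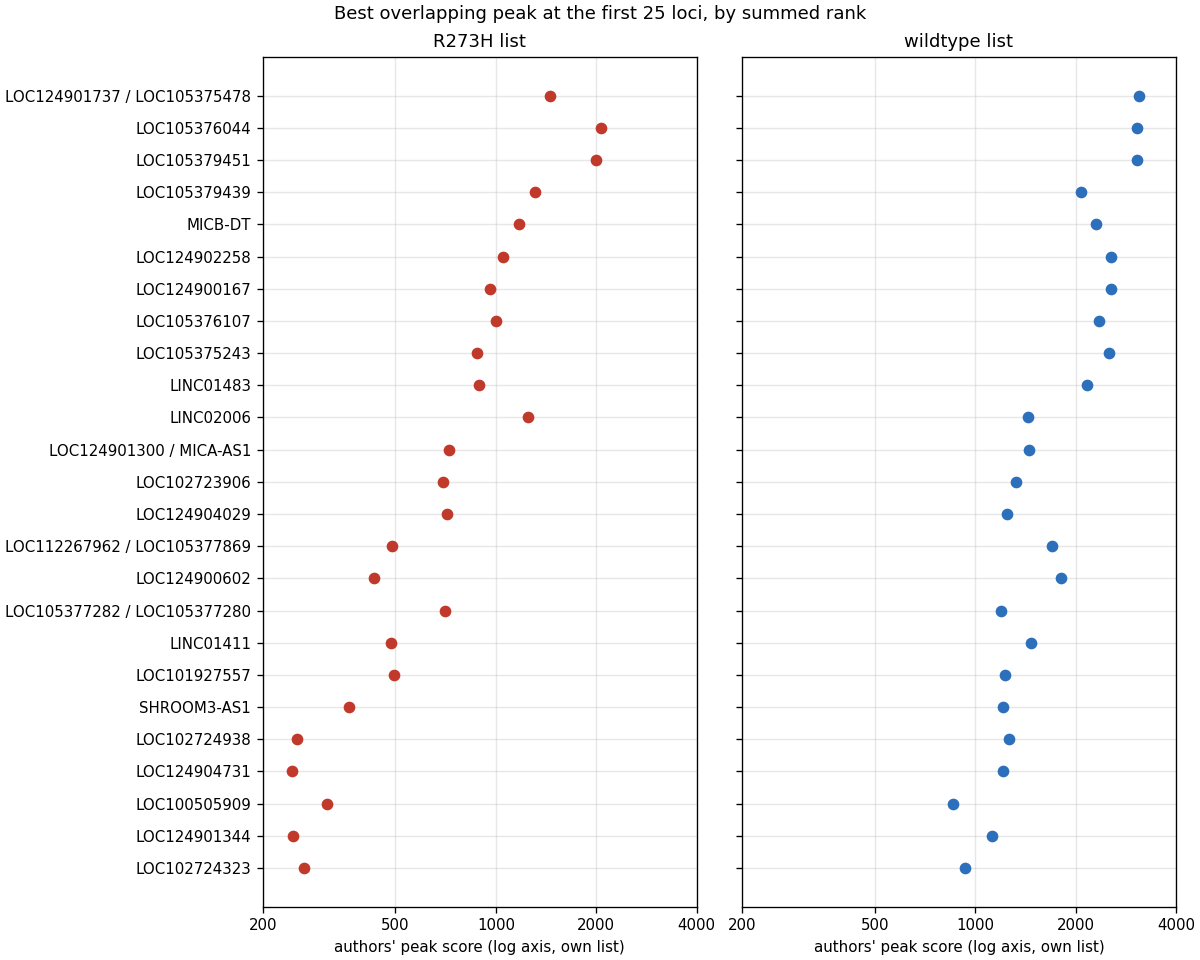
The authors' score of the best overlapping peak at the 25 loci with the lowest summed rank, for the R273H list (left, red) and the wildtype list (right, blue), each point 1 peak, on log axes. Scores are to be read within a panel, where LOC105376044 has the highest R273H point (2073) and LOC124901737 the highest wildtype point (3100).

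A protein-coding gene lay at the same peak, over it or within 10 kb, for 56 of the 147 lncRNA genes. Over distinct peaks this was 53 of 143 R273H peaks (37.1%, against 27.7% of the whole list) and 55 of 152 wildtype peaks (36.2%, against 42.9%). At 35 genes the peaks of both lists overlapped the same protein-coding gene. A peak near both genes cannot be assigned to either from these data.

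Known p53 targets, from 3 lists of 95 genes, shared a peak with 8 of the lncRNA genes described here. These lists were chosen with earlier results of these data known, and the share among all lncRNA genes is not given here. Nothing is therefore read from the count of 8. Of the 7 targets concerned, BBC3 encodes the BH3-only apoptosis protein PUMA; the peaks over it (R273H 245, wildtype 1212) were 7073 and 7049 bp from LOC124904731. TRIM22, an antiviral tripartite motif gene, overlaps the peaks on LOC124902620 (264 and 615), and KITLG, the gene of the KIT receptor ligand, those on LOC124902979 (115 and 527). SUGCT, a mitochondrial CoA transferase gene, overlaps the peaks on LOC105375243 given above. LIF, a cytokine gene, overlaps the peaks of LIF-AS1 and LIF-AS2 (70.5 and 131). NALT1, a lncRNA gene beside the cell fate receptor gene NOTCH1, had peaks 766 and 557 bp away (152 and 434), and they were 4462 and 4253 bp from NOTCH1.

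In the target lists as a whole, 7 of 19 arrest and feedback genes, 4 of 19 apoptosis genes and 11 of 57 repair, metabolism and signalling genes had peaks of both genotypes, against 1.22% of all protein-coding genes. In the same order, 0, 1 and 5 had R273H peaks alone, and 1, 2 and 4 had wildtype peaks alone. The gene lists were chosen with earlier results of these data known, so nothing is read from the difference from all protein-coding genes. Among 37 matched lncRNA genes linked to p53, 2 had a peak in both lists, of which NALT1 is described here and the other is among those left out; 1 had an R273H peak only, 3 a wildtype peak only and 31 none. Among 43 matched lncRNA genes linked to colorectal cancer or stemness, none had a peak in both lists, 1 had an R273H peak only, 1 a wildtype peak only and 41 neither. Of all 18010 lncRNA genes, 0.888% had a peak in both lists, 218 genes had an R273H peak only and 357 a wildtype peak only. The counts in the lncRNA lists are small and were not tested.

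Genes outside the target lists also lay over the shared sites. MSI2, an RNA-binding protein gene of stem and progenitor cells, overlaps the peaks 324 and 202 bp from LOC101927557 (495 and 1226). SHROOM3, an actin-binding regulator of cell shape, overlaps the peaks on SHROOM3-AS1 (362 and 1211), and TMEM30A, a phospholipid flippase subunit gene, those on LOC124901344 (246 and 1121). ALOX5, the leukotriene synthesis enzyme gene, overlaps the peaks near LOC102724323 (267 and 934), and BCL2L1, an anti-apoptotic gene, those on BCL2L1-AS1 (192 and 337). CFTR, the chloride channel gene, overlaps those on CFTR-AS2 (173 and 371). Lower-scoring examples were ASIC2-AS1 (53.2 and 268) and IGF2BP2-AS1 (79.5 and 51.6), over the genes of an ion channel and an RNA-binding protein.

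At 13 genes no R273H peak overlapped a wildtype peak. The best R273H scores at these genes ran from 52.4 to 102 (median 65.95) and the best wildtype scores from 55.3 to 116 (median 61.5). Of the 13 genes, 11 stayed below 100 in both. At the 134 genes with overlapping peaks the medians were 143 and 337. In the R273H list LOC105378948 ranked first of the 13 (102), followed by LINC02614 (95.0), LINC00665 (81.2), CZ1P-ASNS (80.2) and the neighbours CLEC12A-AS1 and LOC124902874 (68.2). In the wildtype list LINC00273 led (116), then LOC107986059 (99.9), CLEC12A-AS1 with LOC124902874 (86.7), LOC102723769 (80.5) and LINC00665 (67.1). Distances here are between the best-scoring peak of each list, which need not be the nearest pair. Those midpoints were more than 5 kb apart at 11 of the 13 genes, with a median of 17988 bp. The maximum was 134407 bp at LOC107986059, and at LOC107986487 they were 161.5 bp apart. CZ1P-ASNS and LINC00665 each had a lower-scoring wildtype peak nearer to the R273H peak (97877518 to 97877660 and 36319750 to 36320104).

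By name, 99 of the 147 genes were uncharacterised (LOC symbols), 19 antisense, 15 intergenic with LINC symbols, 4 divergent, 2 intronic or overlapping and 8 of other names. Their median length was 12999 bp, beside 16176 bp for the 218 lncRNA genes with an R273H peak only, 15020 bp for the 357 with a wildtype peak only and 8956 bp for the 17275 with none. Longer genes have more room for a peak under this rule, and its part in these lengths was not tested. A protein-coding gene was overlapped by 46 of the 147 (31.3%), against 36.7% of all lncRNA genes, 28.9% of the R273H-only genes and 41.7% of the wildtype-only genes. Within 3 Mb of either end of the span covered by genes and peaks lay 27 of the 147 (18.4%), against 8.13% of all lncRNA genes; the numbers were 40 of 218 for R273H-only and 75 of 357 for wildtype-only genes. A response element was found at 3 of the 86 genes with a window (3.49%), at 3 of 125 R273H-only genes (2.40%), at 6 of 231 wildtype-only genes (2.60%) and at 122 of 11014 genes without a peak (1.11%). These shares rest on few genes and were not tested. At EIF2AK3-AS1 and LOC124901737 the element lay inside peaks by which the gene was chosen. The genes were spread over every chromosome except Y, which had none among 106 lncRNA genes. Chromosome 6 had the most (15 of 1050), and chromosome 19 had the highest share (9 of 478, 1.88%).

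The distance limit decides some memberships. Just inside it, the farther of the nearest peaks lay 9970 bp from CLEC12A-AS1, 9763 bp from LOC100505909 and 9347 bp from LOC124902051. Just outside were LINC01054 (10083 bp), LOC107984828 (10115 bp) and LOC124902617 (10142 bp).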

How the data were processed

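Per the submitters' processing notes, Bowtie 1.2.2, MACS, HOMER and hg38 were used, with no role stated; peak cutoffs and input handling were not given in the sources used here. Both peak lists hold the authors' score for each peak, on an unstated scale. Lists were matched to samples by ChIP title, since 1 sample description names the other list. Peaks with the first 192 R273H and 227 wildtype numbers were not at hand and so were not analysed here. Genes near such peaks could be counted as without a peak in that list. Coordinates were made 1-based.

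Genes and promoter windows came from RefSeq tables of GRCh38.p14, the assembly of hg38; no genome sequence was used here. In the gene table, 293 of 18303 lncRNA genes follow the chromosomes' ordered runs with coordinates of scaffolds, and these were left out. Peaks within 10 kb of a gene were assigned to it, and peaks sharing at least 1 bp counted as overlapping. Loci join genes with a common peak. Assignment, overlap and motif search were tested on simulated data. Analyses used Python 3.11.15, pandas 2.3.3 and numpy 2.4.6, with Biopython 1.88 for the local alignment.

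No test was run, because each genotype had 1 ChIP library. Members and gene lists were chosen with earlier results of these data known. Named genes were taken by rule: the 15 loci with the lowest sum of within-list ranks, genes in the lists or at a listed target's peak, the leading genes without overlapping peaks, promoter peaks, the distance limit, and the genes with most peaks or extreme length. Other host genes of shared peaks (MSI2 to IGF2BP2-AS1) were chosen after their values were seen. Alternatives were other distances, a score minimum of 100, chromosome ends left out, reciprocal overlap, midpoint distance in place of overlap, and other motif settings. A gene at a listed target's peak is counted but not reported here.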

Additional observations from a re-analysis of the deposited data

How the results depend on the processing

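The number of lncRNA genes and what was counted among them followed the distance and score limits. Within 2 kb there were 94 genes, of which 87 had overlapping peaks and 22 a protein-coding gene at the peak. With peaks on the gene itself there were 72 genes in 70 loci, 65 with overlapping peaks and 16 with a protein-coding gene overlapped by the peak. With only peaks scoring 100 or more in their own list there were 87 genes in 75 loci, of which 86 had overlapping peaks, 42 a peak on the gene in both lists and 32 a protein-coding gene at the peak. Allowing a spacer of 0 to 13 bases raised the member windows with a response element from 3 to 10 of 100, beside 12.8% of all windows. Leaving out chromosome ends gave 120 genes, and counting the misplaced scaffold genes, chosen after seeing the data, gave 157; counts under both stayed within 1.5 times those reported. The same held for overlapping peaks with a reciprocal overlap of 50% (118 genes), for promoter peaks scoring 100 or more (4 genes) and for at most 2 mismatches (3 windows). Midpoints within 200 bp, in place of overlap, also gave 134 genes, but not the same ones. LOC102724851, with overlapping peaks 208 bp apart by midpoint, dropped out, and LOC107986487, without overlap at 161.5 bp, came in. No paired analysis was possible because each genotype had 1 ChIP library. No library could be left out for the same reason, and depth is unknown.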

Other observations

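Several genes carried more than 1 peak. In all, 112 of the 147 genes had 1 peak in each list and 35 had more in at least 1 list. LOC124903814 on chromosome 1 and LOC107986338 on chromosome 4 had 2 R273H and 3 wildtype peaks each. SOX1-OT, an overlapping transcript of the neural transcription factor gene SOX1, had 2 peaks in each list, with best scores of 54.2 and 73.9. SMIM2, SMIM2-AS1, SMIM2-IT1 and LINC00390 on chromosome 13 formed the largest locus, with 4 genes at 1 peak per list (136 and 142).

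LOC107985675 on chromosome X was the longest of the genes at 528885 bp and had scores of 56.1 and 56.5, and PLSCR5-AS1 on chromosome 3 was the shortest at 724 bp, with scores of 353 and 777 at peaks over PLSCR5. Mature sequences of miR-651 inside LOC107985675 and of miR-5692c inside CZ1P-ASNS were not covered by a peak of either list.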
